A study of Mus musculus with 9 samples.

Results

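Carbonic anhydrases are zinc enzymes that interconvert carbon dioxide and water with bicarbonate and a proton. The 6 genes described here, Car2, Car3, Car4, Car5b, Car8 and Car14, are rows of a table of 54532 genes measured in injured tibialis anterior, a hind limb muscle of the mouse. They were taken by name as carbonic anhydrases of muscle, and Car3 was chosen by its FPKM pattern over the 9 libraries, so its values are given without a test. The table holds 16 carbonic anhydrase genes in all, and the other 10 are given for comparison.

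RNA was sequenced from muscle after injury in 3 groups of 3 libraries each. The groups were old P311-/- mice, old wild-type mice of 24 months and young wild-type mice of 4 to 6 months. P311 is the protein of the gene Nrep. All 3 groups carried the injury, whose kind and timing the labels leave out, as they do the exact age and the allele of the old P311-/- mice. The labels do not say whether each replicate is a separate animal, so the spread behind each p-value is that among libraries and may be technical. Between 14222204 and 31910890 reads per library were counted in genes. Nrep had 14.8, 6.37 and 9.72 FPKM (fragments per gene length and library size) in old P311-/- muscle, 72.4, 71.4 and 83.1 FPKM in old wild-type muscle, and 86.3, 72.6 and 63.9 FPKM in young wild-type muscle. The summed level of 5 muscle fibre genes (Ckm, Acta1, Des, Mb and Ttn) lay between 21028.7 and 30219.4 FPKM in every library, so the markers of the labelled tissue were present throughout. Mitochondrially encoded genes held 9.47% to 14.1% of reads in old P311-/- muscle, 13.2% to 17.6% in old wild-type muscle and 8.79% to 10.7% in young wild-type muscle.

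The members differ in where they act. Car3 encodes a cytosolic enzyme of low catalytic activity that is abundant in skeletal muscle fibres, slow fibres above all, and in adipocytes and liver. Car2 encodes the fast cytosolic enzyme, known in red cells, osteoclasts and many epithelia. Car4 is tethered to the outer face of the cell membrane by a lipid anchor and is known on capillary endothelium and the muscle fibre surface, and Car14 is a transmembrane enzyme with its active site outside the cell. Car5b acts in mitochondria, where bicarbonate is a substrate of carboxylases. Car8 encodes a related protein without carbonic anhydrase activity that binds the inositol trisphosphate receptor Itpr1.

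The active site zinc is held by 3 histidines, and the coding stretch around them shows how 5 of the members relate. It is printed 5′ to 3′ from GENCODE M21 transcripts on GRCm38, with the codons at the 3 zinc-binding positions in capitals.
Car3: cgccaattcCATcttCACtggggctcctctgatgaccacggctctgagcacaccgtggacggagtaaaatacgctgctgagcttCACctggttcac
Car2: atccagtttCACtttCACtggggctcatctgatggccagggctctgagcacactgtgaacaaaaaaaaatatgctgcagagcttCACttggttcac
Car4: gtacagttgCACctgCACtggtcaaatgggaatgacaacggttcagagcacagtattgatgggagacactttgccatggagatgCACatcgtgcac
Car14: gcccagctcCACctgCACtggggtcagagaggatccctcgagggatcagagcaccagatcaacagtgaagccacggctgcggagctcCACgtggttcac
Car5b: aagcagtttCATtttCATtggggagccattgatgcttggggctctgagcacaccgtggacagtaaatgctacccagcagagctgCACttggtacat
In Car3 and Car2, codons 94, 96 and 119 stood at these positions, counted from the start codon of the transcript. Car3, Car2, Car4, Car14 and Car5b had a histidine codon at all 3 positions. Car3 and Car2 were identical at 78 of 96 bases, or 81.2%, and Car3 and Car4 at 55 of 96, or 57.3%. Car3 and Car2 are also neighbours on chromosome 3, both on the plus strand and 13749 bases apart, with Car3 at chr3:14863512-14872523 (ENSMUSG00000027559) and Car2 at chr3:14886273-14900770 (ENSMUSG00000027562).

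Car3 was the most abundant member in every library by a wide margin and lay highest in old P311-/- muscle, lower in old wild-type muscle and lowest in young wild-type muscle. It had 1198.1, 1946.0 and 1705.5 FPKM in the 3 old P311-/- libraries, against 809.4, 718.0 and 705.5 FPKM in old wild-type muscle and 396.0, 245.3 and 288.5 FPKM in young wild-type muscle. No library of one group overlapped another group, and old P311-/- replicate 1 was the lowest of its group. The group means were 1617 ± 382 FPKM in old P311-/- muscle, 744.3 ± 56.7 FPKM in old wild-type muscle and 309.9 ± 77.6 FPKM in young wild-type muscle (SD, n = 3 each). The means differed 2.17-fold between old P311-/- and old wild-type muscle, 2.40-fold between old and young wild-type muscle and 5.22-fold between old P311-/- and young wild-type muscle. In bulk tissue, fewer cells that express a gene and less RNA per cell cannot be told apart.

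**Figure D1:**
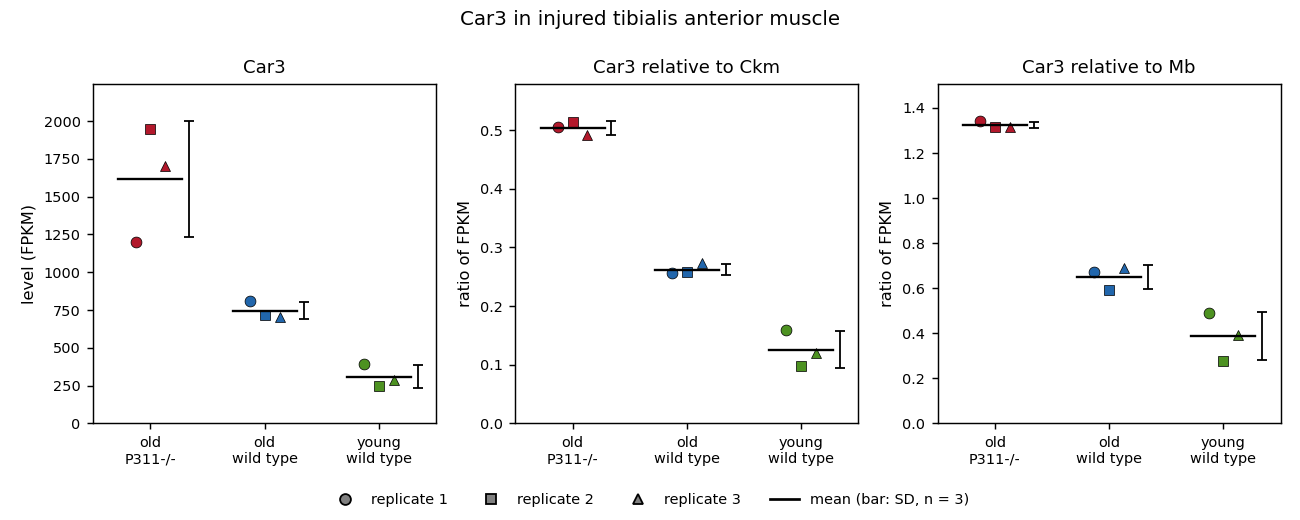
Car3 level in FPKM, and Car3 relative to the fibre genes Ckm and Mb as ratios of FPKM, in each of the 9 libraries. Symbols mark replicates, horizontal lines group means and bars the SD (n = 3). In each panel the 3 groups are separate, with old P311-/- muscle highest. Car3 was chosen for its FPKM pattern, and the ratios hold the same Car3 values.

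On the log2 scale of FPKM plus 0.1, Car3 differed by 1.09 between old P311-/- and old wild-type muscle, by 1.29 between old and young wild-type muscle and by 2.38 between old P311-/- and young wild-type muscle. Leaving out single libraries moved the first of these between 0.94 and 1.29, the second between 1.14 and 1.48 and the third between 2.23 and 2.58. An order of old P311-/- above old wild type above young wild type with no overlap was found in 27 of the 14233 genes tested, or 0.190%. Car3 was chosen for that order, so nothing is read from its place among them.

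The measured depth of Car3 was high. It held 0.382%, 0.487% and 0.463% of all reads in old P311-/- muscle, 0.223%, 0.192% and 0.211% in old wild-type muscle, and 0.121%, 0.0757% and 0.0895% in young wild-type muscle. Ranked by FPKM among all genes, it stood at places 32, 29 and 27 in old P311-/- muscle, at 54, 62 and 58 in old wild-type muscle and at 86, 128 and 105 in young wild-type muscle. At least 11745 reads were counted in it in each library.

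Within a library, Car3 was set against genes of the fibre itself. Its FPKM was 0.506, 0.514 and 0.491 times that of Ckm, muscle creatine kinase, in old P311-/- muscle. The ratio was 0.256, 0.258 and 0.273 in old wild-type muscle and 0.160, 0.0983 and 0.120 in young wild-type muscle. The 3 old P311-/- libraries lay closer together in this ratio than in FPKM, with replicate 1 between the other two. Relative to Mb, myoglobin, Car3 stood at 1.34, 1.31 and 1.32 in old P311-/- muscle, 0.670, 0.591 and 0.690 in old wild-type muscle, and 0.489, 0.279 and 0.394 in young wild-type muscle. These ratios also kept the groups apart. Car3 was chosen for groups that lie apart in FPKM, and the ratios reuse those values, so nothing further is read from this. Relative to Acta1, skeletal actin, the ratios were 0.0648 to 0.0831 in old P311-/- muscle, 0.0390 to 0.0427 in old wild-type muscle and 0.0148 to 0.0233 in young wild-type muscle.

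Car3 made up 98.7%, 98.4% and 98.5% of the summed FPKM of the 16 carbonic anhydrase genes in old P311-/- muscle, 97.1%, 97.4% and 97.7% in old wild-type muscle, and 95.5%, 92.8% and 92.9% in young wild-type muscle. The 5 other members together came to 10.8, 25.9 and 19.9 FPKM in old P311-/- muscle, 18.1, 14.4 and 11.8 FPKM in old wild-type muscle, and 13.5, 12.8 and 15.5 FPKM in young wild-type muscle. Their sums overlapped between groups. The order by FPKM was Car3, then Car14, then Car2 in every library, followed by Car8 and Car4, whose order varied, and Car5b last.

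Of the 5 members other than Car3, 0 passed an adjusted p of 0.05 in limma in any of the 3 comparisons, and 0 had an unadjusted p below 0.05. With voom on recovered reads 0 passed as well. Over all genes tested, an unadjusted p below 0.05 was found in 16.1% between old P311-/- and old wild-type muscle, 26.3% between old and young wild-type muscle and 21.4% between old P311-/- and young wild-type muscle. Against these shares, 0 of 5 is a count that does not set the members apart, and the unadjusted counts of the gene lists are read against the same 3 shares. Over all genes tested, 0.0703% passed between old P311-/- and old wild-type muscle, 5.40% between old and young wild-type muscle and 0.400% between old P311-/- and young wild-type muscle. The number of calls between old and young wild-type muscle depended on the scaling of the libraries, with 62.8% of 768 calls higher in old muscle as deposited and 27.7% of 346 under total-count scaling, which moved the median log2 fold change of all genes to -0.12. Of all 6 members, only Car3 had groups that did not overlap between old P311-/- and old wild-type muscle, as 18.0% of all genes tested did. Between old and young wild-type muscle it was Car3 and Car4, against 37.1% of all genes tested, and between old P311-/- and young wild-type muscle Car3 again, against 23.5%. These shares of genes without overlap count either direction.

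**Figure D2:**
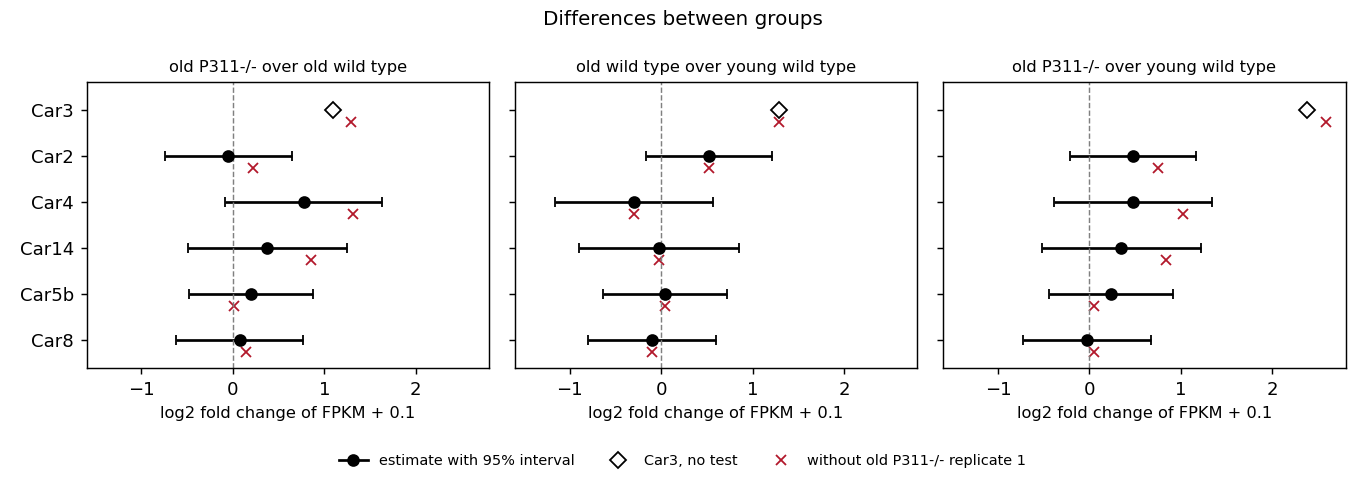
Log2 fold change of FPKM + 0.1 for the 6 members in each comparison, with 95% intervals from limma (filled circles), and the estimate without old P311-/- replicate 1 (crosses). Car3 is an open diamond without an interval because it was chosen for its values. All intervals of the other 5 members include 0.

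Car2 (fast cytosolic enzyme) had 2.87, 5.52 and 4.71 FPKM in old P311-/- muscle, 4.40, 4.81 and 3.93 FPKM in old wild-type muscle, and 4.23, 1.85 and 3.43 FPKM in young wild-type muscle. The groups overlapped, and the lowest value was in young wild-type replicate 2. The log2 fold change was -0.05 between old P311-/- and old wild-type muscle (SE 0.31, 95% interval -0.74 to 0.64, adjusted p = 0.949 in limma) and 0.53 between old and young wild-type muscle (SE 0.31, interval -0.16 to 1.22, adjusted p = 0.305). Without young wild-type replicate 2, the estimate between old and young wild-type muscle was 0.19. Car3 lay 353 to 418 times above Car2 in FPKM in old P311-/- muscle, 149 to 184 times in old wild-type muscle and 84.2 to 132 times in young wild-type muscle. Car2 and Car3 deviated from their group means in like manner, with a Pearson correlation of 0.91 over the 9 libraries, which share library scaling. Without subtracting group means, the correlation was 0.63. Neither value carries a test, and how common such correlations are among all gene pairs was not counted.

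Car4 (membrane anchored; ENSMUSG00000000805, chr11:84957786-84966044) varied most within old P311-/- muscle and least within old wild-type muscle. It had 1.05, 3.90 and 3.08 FPKM in old P311-/- muscle, 1.34, 1.35 and 1.31 FPKM in old wild-type muscle, and 1.48, 1.73 and 1.78 FPKM in young wild-type muscle. The first old P311-/- library was the lowest of all 9 and the other two the highest. The means were 2.68 ± 1.47 FPKM in old P311-/- muscle, 1.33 ± 0.0232 FPKM in old wild-type muscle and 1.66 ± 0.162 FPKM in young wild-type muscle (SD, n = 3 each). The log2 fold change between old P311-/- and old wild-type muscle was 0.77 (SE 0.38, 95% interval -0.08 to 1.63, adjusted p = 0.346 in limma). Between old and young wild-type muscle it was -0.30 (SE 0.38, interval -1.16 to 0.56, adjusted p = 0.658), although every old wild-type value was below every young one. Car4 was counted from 44 to 183 reads per library.

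Without old P311-/- replicate 1, Car4 rose by 1.32 on the log2 scale in old P311-/- against old wild-type muscle (adjusted p = 0.00513 in limma) and by 1.02 against young wild-type muscle (adjusted p = 0.00629). The fit without that library called 1875 and 2785 genes in these comparisons, where all 9 libraries gave 10 and 57. Without old P311-/- replicate 2, the estimates of Car4 were 0.42 against old wild-type and 0.12 against young wild-type muscle.

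Car14 (transmembrane; ENSMUSG00000038526) varied with Car4 over the libraries. It had 4.11, 13.7 and 9.40 FPKM in old P311-/- muscle, 8.86, 5.48 and 4.96 FPKM in old wild-type muscle, and 5.22, 7.20 and 6.77 FPKM in young wild-type muscle. The lowest and the highest of the 9 values were again both in old P311-/- muscle, at replicates 1 and 2. The log2 fold change between old P311-/- and old wild-type muscle was 0.38 (SE 0.39, 95% interval -0.50 to 1.25, adjusted p = 0.646 in limma), and between old and young wild-type muscle it was -0.02 (SE 0.39, interval -0.90 to 0.85, adjusted p = 0.975). Without old P311-/- replicate 1 the first was 0.86 (adjusted p = 0.0665), and without replicate 2 it was -0.0012. The correlation of Car4 with Car14 over the 9 libraries was 0.87, and 0.89 after the group means were subtracted. These values too carry no test and no share among all gene pairs. The annotation of Car14 at chr3:95897768-95904691 overlaps that of Aph1a, on the opposite strand, by 521 bases. Aph1a had between 9.29 and 12.2 FPKM, and since no source used here states whether counting used strand, reads in the overlap may belong to either gene.

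**Figure D3:**
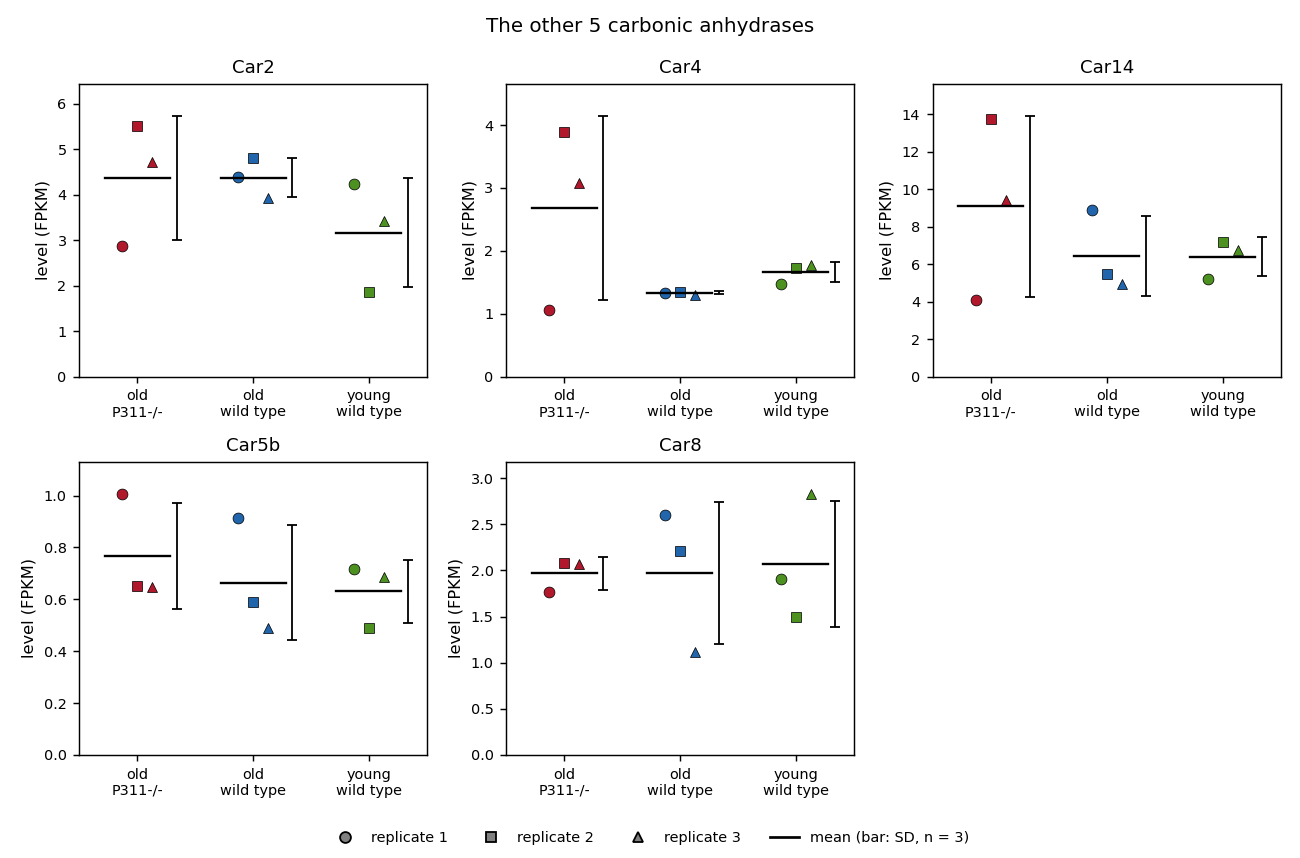
Levels in FPKM of Car2, Car4, Car14, Car5b and Car8 in each library, with group means (lines) and SD (bars, n = 3). Car4 and Car14 have their lowest value in old P311-/- replicate 1 and their highest in old P311-/- replicate 2, and the groups of Car2, Car14, Car5b and Car8 overlap.

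Promoter sequence was at hand for Car4, Car14 and Car5b. The regions of Car4 and Car14, which varied together, are printed from the RefSeq promoter table on GRCm38.p6, 250 bases before to 50 after the annotated start, 5′ to 3′ along the gene. They are chr11:84957504-84957803, plus strand, for Car4 and chr3:95904636-95904935, minus strand, for Car14. Capitals mark matches, on either strand, to the E-box CANNTG, the TATA box TATAAA or the GC box GGGCGG.
Car4: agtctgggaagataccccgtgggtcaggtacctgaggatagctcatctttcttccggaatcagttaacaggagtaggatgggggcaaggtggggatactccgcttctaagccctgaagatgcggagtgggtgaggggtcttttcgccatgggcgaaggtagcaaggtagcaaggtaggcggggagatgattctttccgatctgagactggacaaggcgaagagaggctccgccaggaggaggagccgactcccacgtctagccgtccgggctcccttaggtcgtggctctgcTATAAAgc
Car14: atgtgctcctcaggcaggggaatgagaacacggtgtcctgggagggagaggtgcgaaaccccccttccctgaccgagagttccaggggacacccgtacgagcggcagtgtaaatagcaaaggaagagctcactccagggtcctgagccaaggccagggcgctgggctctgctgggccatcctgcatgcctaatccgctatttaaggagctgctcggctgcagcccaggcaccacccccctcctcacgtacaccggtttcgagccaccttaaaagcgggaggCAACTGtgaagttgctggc
The Car4 region held 1 TATAAA and no E-box, and the Car14 region 1 E-box and no TATAAA. Neither held the GC box, and both matches lie in the bases after the annotated start. The bases after the Car4 start were not found in its GENCODE M21 transcripts, so the start may differ between annotations. Of 32851 promoters of the same length, 72.3% held an E-box, 13.6% TATAAA and 35.7% the GC box. A match of letters is not a binding site.

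Car5b (mitochondrial; ENSMUSG00000031373, chrX:163976822-164027997) had the lowest levels of the 6. It had 1.004, 0.651 and 0.646 FPKM in old P311-/- muscle, 0.914, 0.589 and 0.489 FPKM in old wild-type muscle, and 0.717, 0.490 and 0.685 FPKM in young wild-type muscle. Replicate 1 was the highest library in each group, and the groups overlapped. The log2 fold change was 0.20 between old P311-/- and old wild-type muscle (SE 0.30, 95% interval -0.48 to 0.88, adjusted p = 0.769 in limma) and 0.04 between old and young wild-type muscle (SE 0.30, interval -0.64 to 0.72, adjusted p = 0.949). Its 52 to 182 reads per library limit the precision.

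Car8 (without enzyme activity; ENSMUSG00000041261, chr4:8143362-8239041) had like means in the 3 groups. It had 1.77, 2.08 and 2.07 FPKM in old P311-/- muscle, 2.60, 2.21 and 1.12 FPKM in old wild-type muscle, and 1.90, 1.49 and 2.82 FPKM in young wild-type muscle. The means were 1.97 ± 0.178 FPKM in old P311-/- muscle, 1.97 ± 0.767 FPKM in old wild-type muscle and 2.07 ± 0.683 FPKM in young wild-type muscle (SD, n = 3 each). The log2 fold change was 0.07 between old P311-/- and old wild-type muscle (SE 0.31, 95% interval -0.62 to 0.77, adjusted p = 0.923 in limma) and -0.10 between old and young wild-type muscle (SE 0.31, interval -0.80 to 0.60, adjusted p = 0.865). The spread among old and among young wild-type libraries exceeded every difference between means. A processed pseudogene, Gm11799, overlaps the Car8 annotation by 460 bases and had at most 0.305 FPKM.

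Between old P311-/- and young wild-type muscle, the log2 fold changes were 0.48 for Car2 (interval -0.21 to 1.17, adjusted p = 0.388 in limma), 0.48 for Car4 (-0.38 to 1.34, 0.489), 0.35 for Car14 (-0.52 to 1.22, 0.624), 0.24 for Car5b (-0.44 to 0.92, 0.681) and -0.03 for Car8 (-0.72 to 0.67, 0.970). Without young wild-type replicate 2, the Car2 estimate was 0.14. These intervals leave room for a doubling of Car2, Car4 and Car14 in old P311-/- muscle.

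Of the 10 other carbonic anhydrase genes, Car7, Car9, Car11 and Car13 were abundant enough to be tested, and 0 of these 4 passed in any comparison in limma (1 had an unadjusted p below 0.05 in old against young wild-type muscle and 1 in old P311-/- against young wild-type muscle). Car9, a membrane enzyme known to be induced by low oxygen, had 1.16, 0.583 and 0.934 FPKM in old P311-/- muscle, 0.740, 0.367 and 0.808 FPKM in old wild-type muscle, and 1.32, 2.16 and 1.65 FPKM in young wild-type muscle. Young wild-type muscle lay above both old groups without overlap, and the log2 fold change of Car9 between old and young wild-type muscle was -1.32 (adjusted p = 0.0521 in limma). Car13, a cytosolic enzyme encoded 200509 bases from Car3, had 1.19 to 2.58 FPKM in old P311-/- muscle, 1.58 to 2.68 FPKM in old wild-type muscle and 1.55 to 2.93 FPKM in young wild-type muscle. Car10 was listed at 0 in every library.

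Car1, the red cell enzyme, lies 55143 bases from Car3 on the other strand and was too low to be tested. It was counted with 15, 10 and 18 reads in old P311-/- muscle, 8, 4 and 4 reads in old wild-type muscle, and 3, 2 and 0 reads in young wild-type muscle. The old P311-/- libraries were above the others without overlap in FPKM, at 0.421 to 0.477 FPKM against 0.133 to 0.295 FPKM in old wild-type muscle and 0 to 0.159 FPKM in young wild-type muscle. Of 8 red cell markers, 5 were tested and 0 passed in limma, with 0 at an unadjusted p below 0.05. The median log2 fold change of the 5 was 0.87 between old P311-/- and old wild-type muscle, -0.30 between old and young wild-type muscle and 0.69 between old P311-/- and young wild-type muscle. The sum of all 8 was 837, 300.1 and 344 FPKM in old P311-/- muscle, 972, 149 and 146 FPKM in old wild-type muscle, and 183, 370.2 and 241 FPKM in young wild-type muscle. The groups overlapped, and the part of red cells in the Car1 level was not tested.

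The other cells that carry these enzymes were followed through marker lists. Adipocyte genes (Adipoq, Plin1, Cfd, Lep, Cidec, Retn and Adrb3) summed to 182, 59.4 and 79.3 FPKM in old P311-/- muscle, 90.4, 37.0 and 59.3 FPKM in old wild-type muscle, and 108, 63.2 and 56.8 FPKM in young wild-type muscle. Of these 7 genes, 6 were tested and 0 passed in any comparison in limma, with 0 at an unadjusted p below 0.05. Their median log2 fold change was 0.68 between old P311-/- and old wild-type muscle, -0.19 between old and young wild-type muscle and 0.58 between old P311-/- and young wild-type muscle, where the medians of all genes were -0.00, 0.00 and 0.01. All 6 tested genes were above 0 in both comparisons of old P311-/- muscle. In each group replicate 1 had the highest adipocyte sum. Its Car3 was the lowest of the group in old P311-/- muscle and the highest of the group in old and in young wild-type muscle. The part of adipocytes in the Car3 level was not tested.

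Slow fibre genes (Myh7, Myl2, Myl3, Tnni1, Tnnc1, Tnnt1, Atp2a2 and Tpm3) summed to 113, 116 and 164 FPKM in old P311-/- muscle, 93.2, 102 and 119 FPKM in old wild-type muscle, and 117, 102 and 74.7 FPKM in young wild-type muscle. These sums were below the FPKM of Car3 alone in every library, but levels of different genes do not measure the share of a cell type. Of the 8 genes, 0 passed in any comparison, with 1, 2 and 4 at an unadjusted p below 0.05. These counts are for old P311-/- against old wild-type muscle first, then old against young wild-type muscle, then old P311-/- muscle against the young group. Among the genes counted, Tpm3 was below 0 against young wild-type muscle. Its log2 fold change was -0.53 in old wild-type and -0.56 in old P311-/- muscle. The other genes counted were above 0. The median log2 fold changes of the 8 genes were 0.56, 0.15 and 0.73 in that sequence of comparisons, with 6, 5 and 7 genes above 0. Myh7, the slow myosin heavy chain, had 0.883, 3.95 and 7.26 FPKM in old P311-/- muscle, 0.305, 0.448 and 0.0721 FPKM in old wild-type muscle, and 1.14, 0.132 and 0.123 FPKM in young wild-type muscle. Its log2 fold change was 3.19 between old P311-/- and old wild-type muscle (SE 0.86, adjusted p = 0.243 in limma). Between old and young wild-type muscle it was -0.25 (SE 0.86, adjusted p = 0.877 in limma). The part of slow fibres in the Car3 level was not tested.

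Of 10 fast fibre genes, 1 passed in 1 comparison, with 5, 5 and 3 at an unadjusted p below 0.05. Myh1, a fast myosin heavy chain and the gene that passed, fell by 1.01 on the log2 scale in old against young wild-type muscle (adjusted p = 0.0362 in limma). Myh1 did not pass when any 1 of the 6 wild-type libraries was left out (adjusted p of 0.0580 to 0.120), without old P311-/- replicate 3 (0.0515), without the filter (0.0784) or with the replicate block (0.0691). In that comparison the median log2 fold change of the list was 0.21 and 6 of 10 genes were above 0. Pvalb, a calcium buffer of fast fibres, was at 0.72 (adjusted p = 0.0565 in limma), Tnni2 at 0.50 and Mylpf at 0.45. Myh2, another fast myosin heavy chain, was at -1.39 (adjusted p = 0.176 in limma). Between old P311-/- and old wild-type muscle the directions were mixed, with 6 of 10 genes above 0, 4 below and a median of 0.18. There Myh2 was at 1.93 (adjusted p = 0.254 in limma), Myh1 at 0.90 (adjusted p = 0.242 in limma) and Actn3 at 0.62. Pvalb was at -0.49, Mylpf at -0.43 and Tnni2 at -0.04. Between old P311-/- and young wild-type muscle Myh1 was at -0.11. Fast fibre genes summed to 37528 to 48410 FPKM in old P311-/- muscle, 39927 to 48650 FPKM in old wild-type muscle and 31807 to 36900 FPKM in young wild-type muscle. Endothelial genes, which mark a site of Car4, summed to 72.7, 57.2 and 57.2 FPKM in old P311-/- muscle, 60.8, 72.5 and 86.7 FPKM in old wild-type muscle, and 66.7, 64.8 and 63.5 FPKM in young wild-type muscle. The old P311-/- library with the highest endothelial sum had the lowest Car4, and the libraries with the highest Car4 had the lowest endothelial sums. Of the 8 endothelial genes, 0 passed in any comparison in limma, with 2, 1 and 0 at an unadjusted p below 0.05. The part of endothelium in the Car4 level was not tested.

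**Figure D4:**
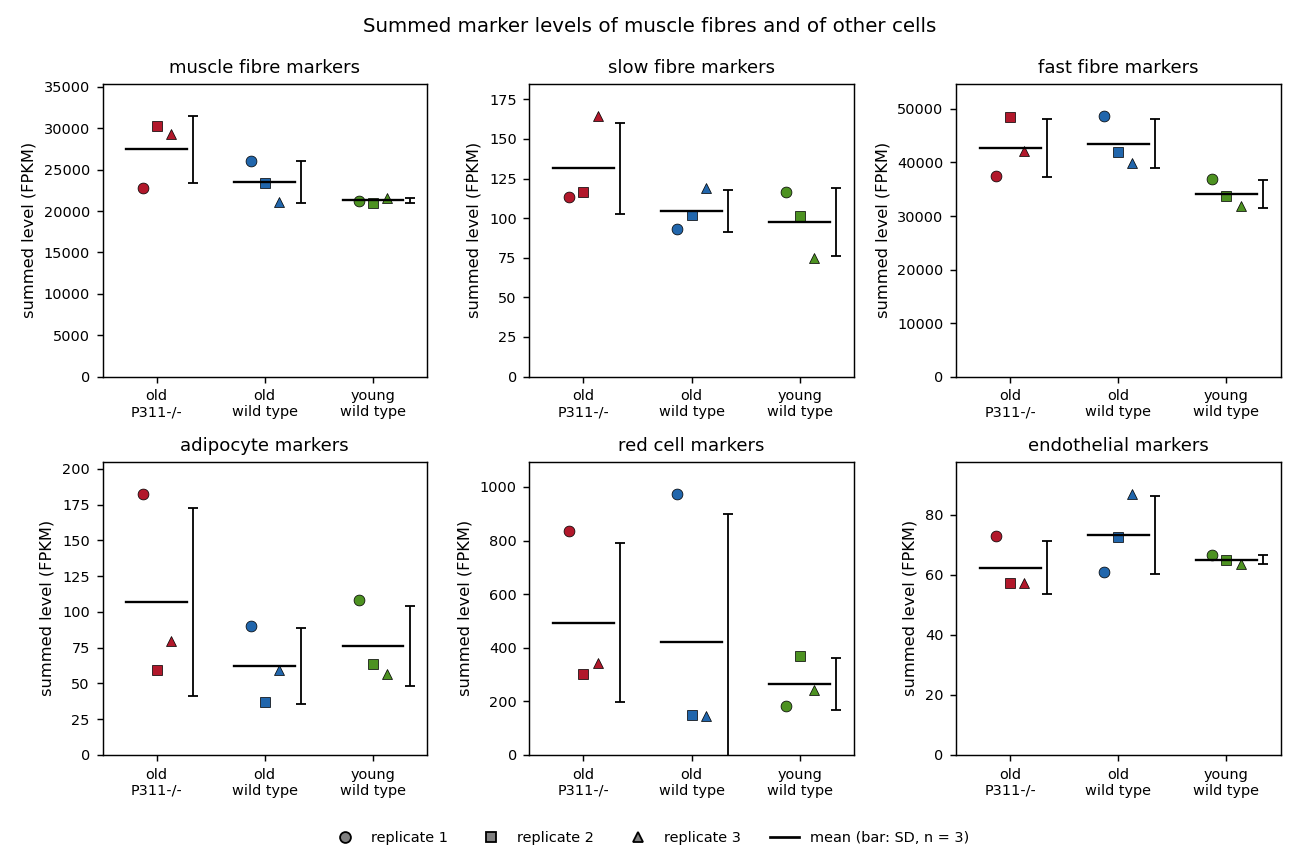
Summed FPKM of marker genes of muscle fibres, slow fibres, fast fibres, adipocytes, red cells and endothelium in each library, with group means (lines) and SD (bars, n = 3; the lower end of the red cell bar in old wild-type muscle is cut at 0). Adipocyte sums are highest in replicate 1 of every group, and red cell sums in replicate 1 of both old groups.

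Macrophage, newly formed fibre, osteoclast and Schwann cell genes were followed in the same way, and 0 of their 7, 5, 2 and 5 tested genes passed in any comparison in limma. At an unadjusted p below 0.05 there were 1, 1 and 6 macrophage genes, 1, 0 and 1 Schwann cell genes and 0 of the other two lists, with the comparisons in the sequence used above. The macrophage genes lay below 0 in log2 fold change in all 3 comparisons for all 7 genes, with a median of -0.25 between old P311-/- and old wild-type muscle, -0.48 between old and young wild-type muscle and -0.72 between old P311-/- and young wild-type muscle. Macrophage sums were 281 to 615 FPKM in old P311-/- muscle, 393 to 654 FPKM in old wild-type muscle and 596 to 812 FPKM in young wild-type muscle. The groups overlapped, and the part of these cells in the Car3 level was not tested.

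The reactions around the enzymes were described through 3 further lists. Of 15 transporters of bicarbonate, protons and lactate, 10 were tested and 0 passed in any comparison, with 1, 1 and 0 at an unadjusted p below 0.05 in limma. The median log2 fold changes of the 10 were 0.14 between old P311-/- and old wild-type muscle, -0.32 between old and young wild-type muscle and -0.07 between old P311-/- and young wild-type muscle. Bsg, the chaperone of lactate transporters, was the most abundant, at 259.7 to 364 FPKM in old P311-/- muscle, 250.2 to 313 FPKM in old wild-type muscle and 248 to 295 FPKM in young wild-type muscle. Slc16a3, the lactate exporter of fast fibres, had 35.5 to 50.3 FPKM in old P311-/- muscle, 28.3 to 44.4 FPKM in old wild-type muscle and 38.5 to 54.8 FPKM in young wild-type muscle. Slc4a2, an anion exchanger, had 3.05, 2.49 and 2.99 FPKM in old P311-/- muscle, against 2.199, 2.18 and 2.36 FPKM in old wild-type muscle and 2.94, 3.49 and 2.74 FPKM in young wild-type muscle. Old wild-type muscle was the lowest group without overlap, against 18.0% and 37.1% of all genes tested without overlap in these 2 comparisons. The log2 fold change of Slc4a2 was 0.32 for old P311-/- against old wild-type muscle (adjusted p = 0.311 in limma). For old against young wild-type muscle it was -0.42 (adjusted p = 0.105 in limma), and Slc4a2 was the gene counted there. The gene counted between old P311-/- and old wild-type muscle was Slc4a7, at -0.55 (adjusted p = 0.295 in limma).

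Carboxylases that use bicarbonate, in mitochondria or elsewhere in the cell, were followed as 8 genes, of which 7 were tested. All 7 were above 0 in log2 fold change between old P311-/- and old wild-type muscle, with a median of 0.28. None of the 7 passed in any comparison in limma, and 1, 1 and 5 had an unadjusted p below 0.05. Their summed level was 68.7, 116 and 109 FPKM in old P311-/- muscle, 78.7, 73.6 and 74.6 FPKM in old wild-type muscle, and 65.6, 67.9 and 62.8 FPKM in young wild-type muscle. The first old P311-/- library lay below all old wild-type libraries and the other two above them. Acacb, the acetyl-CoA carboxylase of oxidative tissue, had 13.1, 34.8 and 32.4 FPKM in old P311-/- muscle, 15.7, 14.6 and 10.8 FPKM in old wild-type muscle, and 14.4, 17.3 and 18.6 FPKM in young wild-type muscle, a spread over libraries like that of Car4. Its log2 fold change between old P311-/- and old wild-type muscle was 0.86 (SE 0.33, adjusted p = 0.278 in limma), and 1.31 without old P311-/- replicate 1 (adjusted p = 0.00546). The fit without that library called 1875 genes in this comparison, where all 9 libraries gave 10.

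Of the 3 inositol trisphosphate receptors, 0 passed in any comparison in limma, with 0, 2 and 0 at an unadjusted p below 0.05. Itpr1, to which the Car8 protein binds, had 1.60, 2.15 and 1.79 FPKM in old P311-/- muscle, 2.16, 3.47 and 1.51 FPKM in old wild-type muscle, and 1.86, 1.44 and 1.70 FPKM in young wild-type muscle. Itpr2 had 0.862 to 1.05 FPKM in old P311-/- muscle, 0.681 to 0.763 FPKM in old wild-type muscle and 1.08 to 1.34 FPKM in young wild-type muscle, 3 ranges that did not overlap. Its log2 fold change between old and young wild-type muscle was -0.66 (adjusted p = 0.0749).

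The genes most like each member over the 9 libraries were taken from 5623 tested genes with a mean of at least 5 FPKM, by Pearson correlation of log2 values. For Car3 they were Sh3rf2 (0.98), an adaptor protein with SH3 domains, Adh1 (0.96), an alcohol dehydrogenase, Cry2 (0.96), a repressor of the circadian clock, Atcayos (0.96), an antisense transcript, and Dgat2 (0.95), an enzyme of triglyceride synthesis. Sh3rf2 averaged 11.3 FPKM in old P311-/- muscle, 5.82 FPKM in old wild-type muscle and 2.39 FPKM in young wild-type muscle. Cry2 averaged 8.21 FPKM in old P311-/- muscle, 5.31 FPKM in old wild-type muscle and 3.69 FPKM in young wild-type muscle. Both had the group order of Car3, for which they were picked.

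For Car4 the nearest genes were Ubqln1 (0.97), a ubiquitin-like adaptor, and Trpc4ap (0.97). For Car14 they were Hadha (0.97), of mitochondrial fatty acid oxidation, and Fitm2 (0.97), of lipid droplet formation. Hadha had 28.8, 50.04 and 42.3 FPKM in old P311-/- muscle, 39.5, 32.6 and 31.1 FPKM in old wild-type muscle, and 33.2, 35.4 and 32.7 FPKM in young wild-type muscle. Here too old P311-/- replicate 1 was the lowest and replicate 2 the highest library. For Car2 the nearest were Wasl (0.96) and Glud1 (0.95), for Car8 Il33 (0.89) and Efemp1 (0.85), and for Car5b Abca8a (0.84) and Ifi205 (0.82). These are the highest of 5623 correlations over 9 libraries that share their scaling, and they carry no test.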

How the data were processed

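RNA-seq of mouse tibialis anterior muscle after injury was deposited as 1 table of 9 libraries in 3 groups. The authors used HISAT2 2.2.1, featureCounts 2.1.1 and DESeq2 1.42.0 and named the build mm39, per the submitters' processing notes; their options were not at hand. GENCODE M21 gave the deposited position for 53499 of the 54409 identifiers it shares with the table (98.3%), so positions are on GRCm38. The deposited values are FPKM, with library sizes the authors scaled. Each FPKM times the deposited gene length, in bases, and 1 factor for its library came to a whole number of reads, within 0.001, in 100% of values. These recovered reads gave depth and filters.

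Genes with at least 0.5 FPKM and at least 10 recovered reads, each in at least 3 libraries, were tested (14233 genes). limma 3.58.1 in R 4.3.3, with mean-variance trend and robust moderation, was fitted to log2(FPKM + 0.1) in all 9 libraries without a block, and p-values were adjusted by Benjamini and Hochberg over all genes tested, with 0.05 as threshold. This scale understates changes of low genes. Fold changes are first-named group over second. Genes near each member were ranked by Pearson correlation of log2 values. The method was tested on simulated data. The members and lists were chosen with earlier results of these data known. Named genes are the members, Nrep, the other carbonic anhydrases, up to 4 list genes of smallest p or highest mean, and the nearest genes by correlation. Marker genes outside this rule (Myh7, Myh1, Myh2, Actn3, Itpr1, Hadha per library) were named after their values were seen. Alternatives were another pseudocount, no filter, total-count scaling, voom on recovered reads, only 6 libraries, a replicate block and leaving out single libraries.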

Additional observations from a re-analysis of the deposited data

How the results depend on the processing

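Over 225 estimates of the 5 members other than Car3 under alternative settings, 207 kept their direction and side of the threshold, 16 changed sign and 2 newly passed. Some settings could change only the p-value and not the estimate, so the kept directions overstate stability. They were no filter, only the 6 libraries compared, the replicate block and leaving out a library of the group not compared. Car3, given without a test, kept its direction in all 45 of its estimates, which include those same settings. It was chosen for groups that do not overlap, so leaving out a single library could not reverse it. Car4 passed without old P311-/- replicate 1, at 1.32 against old wild-type and 1.02 against young wild-type muscle, so that 0 to 1 of the 5 members other than Car3 were called against each when single libraries were left out. Car5b between old and young wild-type muscle was -0.076 under total-count scaling. When single libraries were left out, log2 fold changes between old P311-/- and old wild-type muscle ranged from -0.24 to 0.22 for Car2, from 0.42 to 1.32 for Car4, from 0.0099 to 0.42 for Car5b, from -0.27 to 0.30 for Car8 and from -0.0012 to 0.86 for Car14. Those between old and young wild-type muscle ranged from 0.19 to 0.77 for Car2, from -0.18 to 0.21 for Car5b, from -0.33 to 0.25 for Car8 and from -0.28 to 0.14 for Car14. Those between old P311-/- and young wild-type muscle ranged from 0.14 to 0.75 for Car2, from 0.12 to 1.02 for Car4, from 0.050 to 0.33 for Car5b, from -0.23 to 0.21 for Car8 and from -0.026 to 0.83 for Car14. Genes called between old P311-/- and old wild-type muscle were 10, against 6 with only the 6 libraries compared, 4 with the replicate block and 4 to 1875 when single libraries were left out. Between old and young wild-type muscle there were 768, against 5 without the filter, 346 under total-count scaling, 1653 with 6 libraries, 0 with the replicate block in limma (3386 at an unadjusted p below 0.05) and 0 to 1755 without single libraries. Between old P311-/- and young wild-type muscle there were 57, against 87 with a pseudocount of 1, 23 without the filter, 34 under total-count scaling, 139 with voom, 12 with 6 libraries, 5 with the replicate block and 4 to 2785 without single libraries. The highest of each range was without old P311-/- replicate 1. The cause of these shifts was not tested. Over all genes tested, the correlations of same-numbered deviations lay between -0.10 and 0.15, so no pairing by replicate number was seen in genes as a whole. These correlations cannot exclude an effect shared by same-numbered libraries on some genes. The block changed no call of the 5 members other than Car3. Reads of 44 to 722 per library limit Car2, Car4, Car5b, Car8 and Car14.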
